A study of Homo sapiens with 4 samples.

Results

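Histone chaperones escort histones on and off DNA, and chromatin modifiers write, erase, read or move the histones once they are in place. A set of 40 genes of these classes was followed over the 4 arrays of a drug-treatment series in melanoma cells. All probes whose platform gene symbol, current or older, was one of the 40 names were taken, which gave 55 probes and at least 1 for each of the 40 genes, out of 48803 probes and 18665 named genes on the array. Of the 40 genes, 38 were detected on at least 1 array, against 10077 genes in all; HIRA, which deposits the replacement histone H3.3, and ANP32E, a chaperone that removes H2A.Z, were not detected on any array.

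MelJuSo is a human skin melanoma cell line, and RNA from it was read on 1-colour Illumina expression beadchips, 1 array for each of 4 groups. The groups were cells left without drug, cells that received aclarubicin at 10 µM, cells that received doxorubicin at 9 µM, and cells that received both etoposide at 10 µM and aclarubicin at 10 µM. Drug exposure lasted 2 h, the drug was washed off, and the treated cells were harvested 1 day later; no exposure or harvest time is given for the untreated cells, nor the order in which etoposide and aclarubicin were added. Since a group has 1 array, the spread between replicates is unknown, no p-values are reported and each difference is one between arrays.

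Chromatin is built from nucleosomes, in which DNA is wound around H3-H4 and H2A-H2B histone pairs. Separate chaperones handle each pair during replication, transcription and repair, Polycomb repressive complex 2 (PRC2) methylates histone H3 at silenced genes, acetyltransferases and deacetylases add and remove acetyl groups, and remodellers slide or evict nucleosomes with energy from ATP. Doxorubicin and aclarubicin are anthracyclines, DNA-intercalating drugs that differ in the sugars attached to the ring system, and both are known to dislodge histones from chromatin. Doxorubicin and etoposide also freeze topoisomerase II on broken DNA, while aclarubicin keeps the enzyme off DNA and etoposide does not intercalate.

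A level is the background-corrected, quantile-normalized log2 signal of a gene's brightest probe, a difference is that of 2 levels, and 2-fold (1 on the log2 scale) was the threshold for calling a gene higher or lower. A probe counted as detected at a detection p under 0.01, and a gene detected on only 1 of the 2 arrays compared has a bound, the least difference its detected level allows. The only error available comes from 1066 genes read by 2 probes on every array. It is the SD of the gap between the 2 probes divided by the square root of 2, hence a spread per probe, smaller than the gap itself. This probe disagreement was 0.46 for aclarubicin minus untreated, 0.33 for doxorubicin minus untreated and 0.51 for the combination minus untreated. The number of probes detected was 13521 on the untreated array, 9864 with aclarubicin, 14773 with doxorubicin and 9128 with the combination. Without any scaling between arrays the median gene lay at -0.66 with aclarubicin, 0.06 with doxorubicin and -0.92 with the combination relative to untreated cells, a shift that quantile normalization removes; unscaled values are therefore given for members whose direction or side of 2-fold against untreated cells changed without it. In RNA from a whole culture, fewer cells of a kind and less of a transcript per cell cannot be told apart. Of 8 melanocyte lineage markers with a probe, 5 were detected in untreated cells (PMEL, TYRP1, MITF, SOX10 and S100A1), while MLANA, TYR and S100B were not; of the markers of other cell types, each array detected 1 of 6 for fibroblasts and 1 of 4 for keratinocytes (KRT10), and the defining COL1A1, COL1A2, COL3A1, DCN, KRT5, KRT14 and PTPRC were not detected on any array. Endothelial markers numbered 2 of 3 after doxorubicin and 1 of 3 elsewhere. Of 3 leukocyte markers 0 were detected in untreated cells and 1, CD14, after each treatment, at levels of 8.86 after aclarubicin, 5.12 after doxorubicin and 8.94 with the combination. The summed non-normalized signal of the leukocyte probes was 289.6, 687, 308 and 613 on the untreated, aclarubicin, doxorubicin and combination arrays; the part of these markers in the results was not tested.

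All 3 PRC2 genes in the set (EZH2, EED and SUZ12) were at least 2-fold higher after doxorubicin than after aclarubicin. Among the 8 roles in the set PRC2 was the only one with every member past 2-fold in that comparison, in which 18.3% of all genes tested were as much higher. Further PRC2 subunits are not members and are among the other Polycomb genes below. The stretches around the transcription starts of the 3 genes are shown first for that reason. EZH2 is the methyltransferase, EED binds the methylated product and spreads the mark, and SUZ12 holds the complex together. Each stretch runs from 250 bases before to 30 bases after the start in RefSeq (GRCh38.p14): EZH2 at chr7:148884262-148884541 on the minus strand, EED at chr11:86244503-86244782 on the plus strand and SUZ12 at chr17:31936757-31937036 on the plus strand. Capitals mark matches on either strand to the E2F-like motifs TTTGGCGC, TTTCCCGC and TTTCGCGC, to the cell cycle homology region TTTGAA and to the CCAAT box.
EZH2: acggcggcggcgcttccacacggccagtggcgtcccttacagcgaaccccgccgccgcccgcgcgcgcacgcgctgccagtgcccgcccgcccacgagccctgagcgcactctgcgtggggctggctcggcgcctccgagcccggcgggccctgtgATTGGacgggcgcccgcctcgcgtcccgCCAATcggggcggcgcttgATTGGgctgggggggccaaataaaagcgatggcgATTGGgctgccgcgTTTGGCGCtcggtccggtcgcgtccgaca
EED: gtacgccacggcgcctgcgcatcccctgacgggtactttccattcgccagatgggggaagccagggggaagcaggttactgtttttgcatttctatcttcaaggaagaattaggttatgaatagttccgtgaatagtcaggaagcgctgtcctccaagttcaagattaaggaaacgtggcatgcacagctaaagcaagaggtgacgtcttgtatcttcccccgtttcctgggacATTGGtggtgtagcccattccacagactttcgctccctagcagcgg
SUZ12: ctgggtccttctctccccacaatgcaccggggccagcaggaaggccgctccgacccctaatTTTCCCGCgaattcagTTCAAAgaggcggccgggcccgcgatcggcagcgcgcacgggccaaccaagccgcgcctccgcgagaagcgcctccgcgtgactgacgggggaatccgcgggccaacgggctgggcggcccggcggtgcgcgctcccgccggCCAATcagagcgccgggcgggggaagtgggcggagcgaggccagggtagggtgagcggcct
EZH2 held 4 CCAAT boxes and an E2F-like match at the start itself, SUZ12 an E2F-like match 189 bases and a TTTGAA match 173 bases before the start and 1 CCAAT box, and EED only a CCAAT box 16 bases before the start. Among the 36 members found in the promoter table, 5 held an E2F-like match (CBX3, DNMT1, EZH2, HIRA and SUZ12), which is 13.9%, against 4.91% of the 8317 promoters of detected genes and 2.79% of all 27305 promoters of the same 300-base length. DNMT1, EZH2 and SUZ12 are among the members known in other studies as genes of proliferating cells, of whose 6 promoters 3 held a match. The members' share thus depends on which genes were put in the set. The CCAAT box was in 14 of the 36 (38.9%, against 37.8% of detected genes), and TTTGAA in 2, ASF1B and SUZ12 (5.56%, against 9.97%). ANP32E, ATRX, DAXX and HMGB2 were not matched in the table. The 36 include HIRA, which was not detected on any array, so the members' shares are not restricted to detected genes. These are letter matches, not measured binding.

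All 3 PRC2 genes in the set lay below untreated cells after aclarubicin, 2 of them by at least 2-fold. After the combination all 3 were also below, 1 of them by at least 2-fold. After doxorubicin 1 of the 3 was at least 2-fold higher. Of all genes tested, 16.9% were at least 2-fold higher and 17.3% lower after aclarubicin, 11.6% and 10.1% after doxorubicin, and 19.5% and 17.4% after the combination. The level of SUZ12 was 11.80 without drug and 11.81 after doxorubicin, against 9.82 after aclarubicin and 9.35 after the combination. It was 3.94-fold lower after aclarubicin (difference -1.98) and 5.45-fold lower after the combination (-2.45), the lowest of all measured members in both, and stayed at least 2-fold lower under all 10 other ways of processing the values, with ranges of -2.25 to -1.36 and -3.13 to -1.92. After doxorubicin its difference was 0.01 (-0.14 without scaling). The non-normalized signal had the same pattern, with 3712 without drug and 3379 after doxorubicin against 816 after aclarubicin and 451 after the combination.

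EED had levels of 8.27, 7.19, 9.39 and 7.55, given here and in all later lists of 4 values in the order untreated, aclarubicin, doxorubicin, combination; lists of 3 differences from untreated cells keep the same order of drugs. It was 2.13-fold lower after aclarubicin (-1.09, or -2.23 without scaling), 2.17-fold higher after doxorubicin (1.12, past 2-fold in 6 of 11 settings and 0.94 without scaling) and at -0.72 after the combination (-2.17 without scaling). EZH2 had levels of 7.78, 7.22, 8.59 and 6.89. Its differences were -0.55, 0.81 and -0.89, all under 2-fold in size, although without scaling the first and the last were -1.72 and -2.35 and median scaling over detected probes gave -1.13 for the last. The 3 EZH2 probes moved together: their aclarubicin differences lay between -0.92 and -0.55 and their doxorubicin differences between 0.81 and 0.94. EZH2 and EED were thus lowest on the arrays with aclarubicin and highest on the doxorubicin array, whereas SUZ12 on the doxorubicin array sat at its untreated level.

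**Figure D1:**
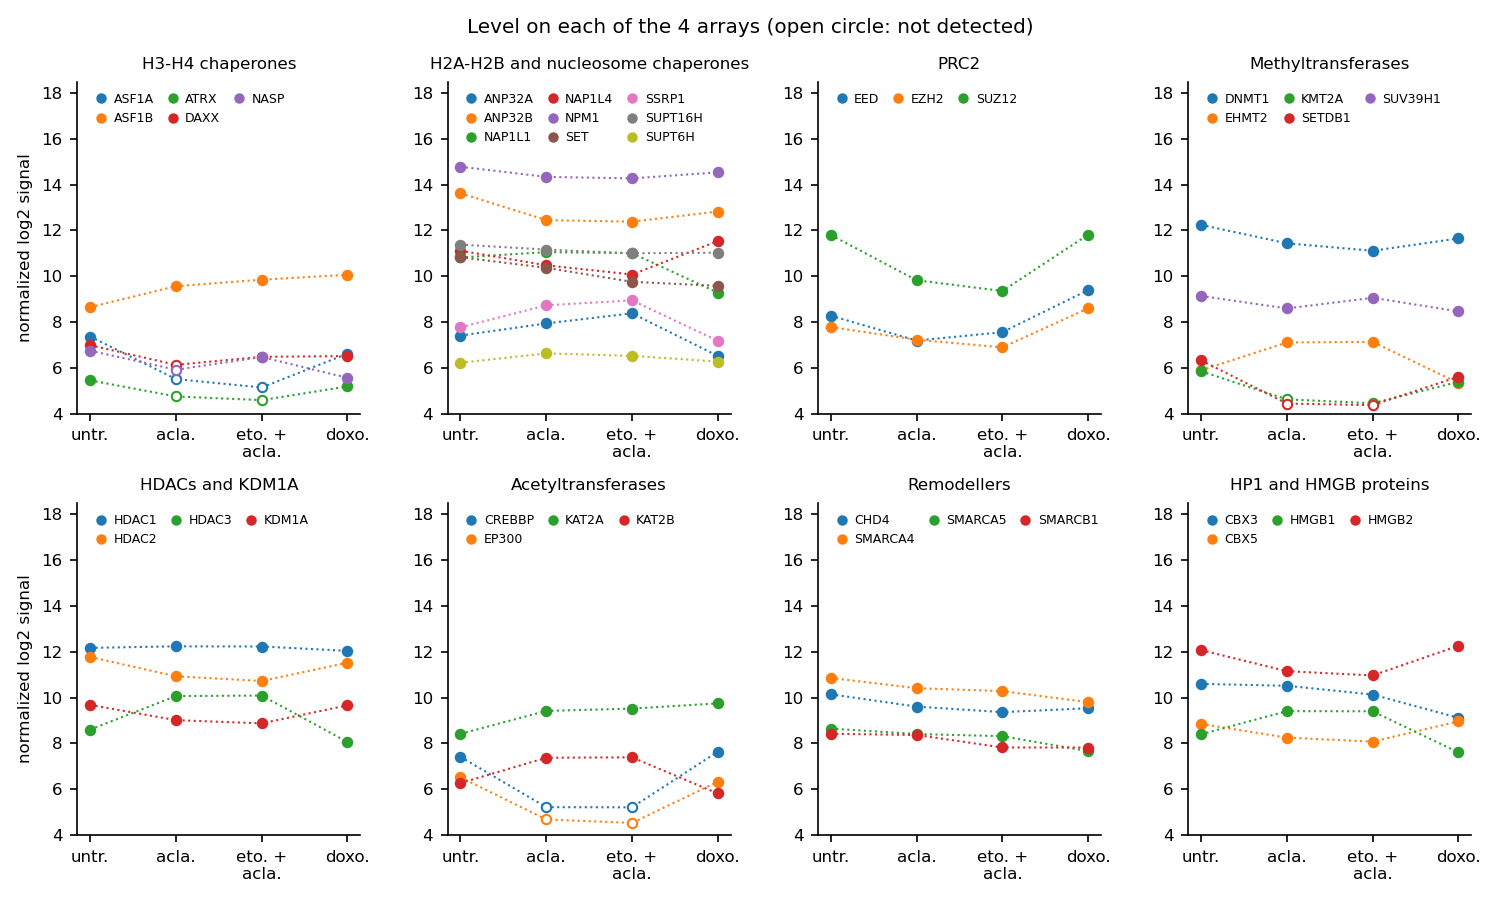
Normalized log2 signal (vertical axes) of the 38 detected genes on the 4 arrays (horizontal axes: untreated, aclarubicin, etoposide plus aclarubicin, doxorubicin), 1 panel for each role; a filled point is a gene detected on that array, an open circle one that was not, and dotted lines only join the values of a gene. SUZ12 drops from 11.80 to 9.82 and 9.35 on the arrays with aclarubicin and is at 11.81 after doxorubicin, while HDAC3 is at 10.07 and 10.09 on the arrays with aclarubicin and at 8.61 and 8.06 on the others.

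For this and the later lists of related genes, counts include bounds and the named highest and lowest genes are those detected on both arrays. Other Polycomb genes, a list of 24 with 18 or 19 tested, counted 0 higher and 6 lower after aclarubicin, 0 higher and 2 lower after doxorubicin, and 1 higher and 4 lower after the combination. The lower share was 33.3% after aclarubicin, against 17.3% of all genes, 10.5% against 10.1% after doxorubicin and 22.2% against 17.4% after the combination. The higher shares were 0, 0 and 5.56% in the same order, against 16.9%, 11.6% and 19.5% of all genes. The lowest was PCGF6, a PRC1 subunit, after aclarubicin (-1.86) and the combination (-1.87). RBBP4, the histone-binding subunit of PRC2, was the highest in both (0.92 and 1.15), but without scaling its differences turned to -0.21 and -0.28. After doxorubicin PHF19, a PRC2 accessory factor, was lowest at -2.55 and PHC3 of PRC1 highest at 0.84 (1.14 without scaling). For doxorubicin minus aclarubicin 3 of 19 other Polycomb genes were higher and 1 lower. These are 15.8% and 5.26%, against 18.3% and 18.7% of all genes. PCGF6 was the highest there (2.05) and PHF19 the lowest (-3.09), so the PRC2 genes outside the set did not all share the direction of the 3 members.

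H3-H4 chaperones were detected in untreated cells in 5 of 6 cases, and 4 of these 5 were not detected after aclarubicin. Of the 8843 genes detected in untreated cells, 25.7% were not detected after aclarubicin. The count rests on the threshold of 0.01, since NASP and DAXX each had a detection p of 0.012 after aclarubicin and 0.0092 after the combination. SUPT6H, which also handles H3-H4 but is listed with the nucleosome chaperones, was detected on all 4 arrays. ASF1A, which hands H3-H4 to the depositing chaperones, had levels of 7.36, 5.50, 6.62 and 5.14 and detection p-values of 0.021 after aclarubicin and 0.047 after the combination, so it was at least 2.26-fold lower after aclarubicin and at least 1.91-fold lower after the combination (a bound of -0.94, or -2.34 without scaling). Its difference after doxorubicin was -0.75. Its paralog ASF1B, the copy tied to dividing cells, went the other way, with levels of 8.65, 9.56, 10.06 and 9.84. ASF1B was 2.67-fold higher after doxorubicin (1.41), the highest of all members there and past 2-fold under all 11 ways of processing; after aclarubicin (0.92) and the combination (1.20) its unscaled differences were only 0.11 and 0.12. The non-normalized ASF1B signal was 619, 665, 1349 and 670, so it was set apart on the doxorubicin array alone.

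NASP, which guards the soluble pool of H3-H4, had levels of 6.74, 5.91, 5.56 and 6.47 and was 2.27-fold lower after doxorubicin (-1.19). After aclarubicin NASP narrowly missed detection (detection p of 0.012), which leaves a bound of -0.56, and after the combination it was detected at -0.28; without scaling these were -1.66 and -1.67. DAXX, the H3.3 chaperone that works with ATRX, had levels of 6.98, 6.13, 6.51 and 6.48 and differences of a bound of -0.80, then -0.47 and -0.51, of which the first and the last were both -1.92 without scaling. ATRX, the remodelling partner of DAXX, was dim throughout, with levels of 5.45, 4.75, 5.18 and 4.58; it was detected in untreated and doxorubicin-treated cells, and its bounds of 0.00 carry no size. Among the 24 other histone chaperones, 2 were higher and 7 lower of 20 tested after aclarubicin (10.0% and 35.0%, against 16.9% and 17.3% of all genes), 0 and 3 of 21 after doxorubicin (0 and 14.3%, against 11.6% and 10.1%), and 2 and 4 of 20 after the combination (10.0% and 20.0%, against 19.5% and 17.4%). HJURP, the chaperone of the centromeric H3 variant, was lowest after aclarubicin (-2.78), NPM3 lowest after doxorubicin (-2.40) and DNAJC9, an H3-H4 co-chaperone, lowest after the combination (-1.90). The highest were SUPT4H1, an elongation factor subunit, at 1.15 after aclarubicin and 1.12 after the combination (0.27 and -0.12 without scaling), and TSPYL1 at 0.69 after doxorubicin.

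The H2A-H2B and nucleosome chaperones gave 0 higher and 1 lower of 9 after aclarubicin, 0 higher and 2 lower after doxorubicin and 1 higher and 3 lower after the combination. The lower shares were 11.1%, 22.2% and 33.3%, against 17.3%, 10.1% and 17.4% of all genes, each resting on 3 genes or fewer. The higher shares were 0, 0 and 11.1%, against 16.9%, 11.6% and 19.5% of all genes. NAP1L1, which shuttles H2A-H2B into the nucleus, had levels of 10.81, 11.05, 9.28 and 11.00. It was 2.90-fold lower after doxorubicin (-1.54), the lowest member there, and past 2-fold in all 11 settings; its second probe gave -1.04. After aclarubicin and the combination its differences were 0.24 and 0.19, the latter turning to -0.28 without scaling. The second probe gave 0.95 and 0.92 there, so the size of these differences depended on the probe. NAP1L4, its relative, had levels of 11.11, 10.47, 11.53 and 10.07: the difference was 0.42 after doxorubicin, -0.64 after aclarubicin and -1.04 after the combination (-1.68 without scaling and -0.46 under median scaling over detected probes). NAP1L1 and NAP1L4 therefore stood on opposite sides of untreated cells after doxorubicin, each by more than the SD per probe of 0.33. NAP1L4 exceeded it by little (0.42) and was at only 0.22 without scaling.

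SET, an inhibitor of histone acetylation that also carries H2A-H2B, had levels of 10.82, 10.36, 9.57 and 9.75. It was 2.37-fold lower after doxorubicin (-1.25) and 2.10-fold lower after the combination (-1.07, or -0.61 under median scaling over detected probes), and at -0.46 after aclarubicin, a value that turned to 0.09 under median scaling over detected probes. The acidic ANP32 proteins bind SET and histones. ANP32B had levels of 13.62, 12.45, 12.82 and 12.38 and was 2.26-fold lower after aclarubicin (-1.18, or -0.78 without scaling), at -0.80 after doxorubicin and 2.37-fold lower after the combination (-1.24), but median scaling over detected probes turned the first and the last to 0.09 and 0.20. ANP32A had levels of 7.41, 7.93, 6.51 and 8.38, with differences of 0.53, -0.89 and 0.97; without scaling the aclarubicin and combination values turned to -0.60 and -0.44. Only the lower levels of ANP32A and ANP32B after doxorubicin kept their direction under every scaling tried.

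SSRP1 and SUPT16H form FACT, which loosens nucleosomes ahead of polymerases. SSRP1 had levels of 7.77, 8.73, 7.17 and 8.94, that is differences of 0.96, -0.59 and 1.18, and without scaling -0.06, -0.49 and -0.15. SUPT16H had levels of 11.38, 11.16, 11.02 and 11.00 and differences of -0.22, -0.35 and -0.38, of which the first and the last turned to 0.57 and 0.46 under median scaling over detected probes. SUPT6H, an H3-H4 chaperone of elongating polymerase, had levels of 6.22, 6.62, 6.27 and 6.52 and differences of 0.41, 0.05 and 0.30, and without scaling the aclarubicin value was -0.64 and the combination value was also below 0, just short of 2-fold. NPM1, the nucleolar chaperone, had levels of 14.78, 14.33, 14.53 and 14.27 and differences of -0.44, -0.24 and -0.51; median scaling over detected probes gave 0.78 and 0.95 for the first and the last. No direction after aclarubicin or the combination can be given for these 4 genes, since each turned with the scaling. NPM1 and HMGB1 each have 50 named pseudogenes, SET 19, CBX3 10, NAP1L1, NAP1L4 and ANP32B 3 each and SUZ12 2, and a probe could also read such near-identical copies, so their levels are uncertain in that respect.

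**Figure D2:**
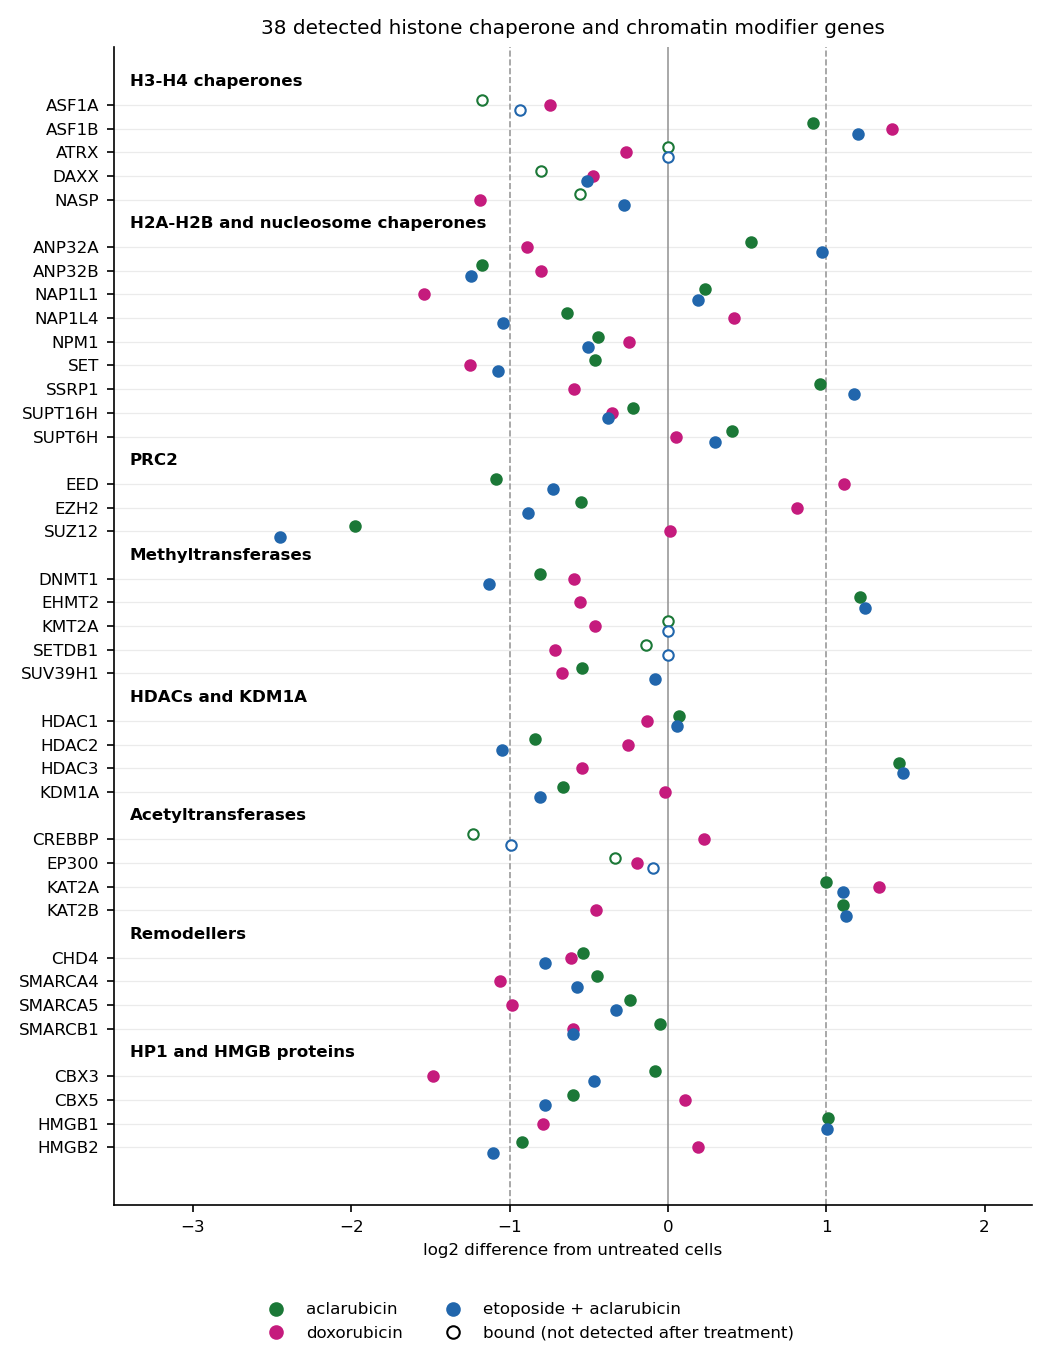
Difference from untreated cells (horizontal axis, log2 scale) of each of the 38 detected genes, grouped by role, after aclarubicin, doxorubicin and etoposide plus aclarubicin; open circles are bounds for genes not detected after treatment, and dashed lines mark 2-fold. The aclarubicin and combination points of a gene mostly lie together, as for SUZ12 (-1.98 and -2.45) and HDAC3 (1.46 and 1.49), while the doxorubicin points of NAP1L1 (-1.54) and CBX3 (-1.48) lie far to the left of theirs.

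Among the deacetylases HDAC3, the catalytic subunit of the NCoR and SMRT corepressors, was the highest member after both treatments with aclarubicin. Its levels were 8.61, 10.07, 8.06 and 10.09. It was 2.76-fold higher after aclarubicin (1.46) and 2.80-fold higher after the combination (1.49), and at -0.54 after doxorubicin. Without scaling these differences were 0.73 and 0.46, under 2-fold but in the same direction, and the non-normalized signals were 605, 983, 450 and 822.

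HDAC1 and HDAC2, which share the Sin3, NuRD and CoREST complexes, differed from HDAC3. HDAC1 had levels of 12.17, 12.24, 12.04 and 12.23, with differences no larger in size than 0.13, all smaller than the probe disagreement, but median scaling over detected probes put it 2.26-fold higher after aclarubicin (1.18) and 2.49-fold higher after the combination (1.31). HDAC2 had levels of 11.77, 10.93, 11.52 and 10.73 and was at -0.84 after aclarubicin, -0.25 after doxorubicin and 2.07-fold lower after the combination (-1.05); under median scaling over detected probes the last was -0.22. KDM1A, the CoREST demethylase, had levels of 9.68, 9.02, 9.66 and 8.88 and differences of -0.67, -0.02 and -0.80, of which the first and the last were -1.43 and -1.92 without scaling. Of 27 other deacetylases and NuRD or CoREST subunits, 4 were higher and 3 lower among 15 tested after aclarubicin (26.7% and 20.0%, against 16.9% and 17.3% of all genes), 1 and 3 among 18 after doxorubicin (5.56% and 16.7%, against 11.6% and 10.1%), and 4 and 3 among 15 after the combination (26.7% and 20.0%, against 19.5% and 17.4%). SAP18, a Sin3 subunit, was the highest in each comparison (1.84, 1.09 and 2.22), but without scaling it was under 2-fold after aclarubicin and the combination (0.82 and 0.94); the lowest were SAP30, also of Sin3, after aclarubicin (-2.83), HDAC9 after doxorubicin (-1.82) and the sirtuin SIRT1 after the combination (-2.22). Histone demethylases, a list of 19 with 10 tested, counted 0 higher in each comparison and 5, 1 and 4 of the 10 lower, against 17.3%, 10.1% and 17.4% of all genes. KDM2B was the lowest after aclarubicin (-2.04) and the combination (-2.21) and RIOX2 after doxorubicin (-1.18); the highest were KDM3B (0.43 and 0.32, or -0.72 and -1.17 without scaling) and, after doxorubicin, KDM5B (0.93).

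The acetyltransferases split by family in detection on the arrays with aclarubicin, but not in their differences after doxorubicin. CREBBP and EP300, the large paired coactivators, were detected in untreated and doxorubicin-treated cells and on neither array with aclarubicin. Such a loss after aclarubicin befell 25.7% of all genes detected in untreated cells. CREBBP had levels of 7.42, 5.22, 7.64 and 5.21, non-normalized signals of 297, 61.6, 354 and 59.4, and detection p-values of 0.033 and 0.041 on the arrays with aclarubicin; it was at least 2.35-fold lower after aclarubicin and at least 1.99-fold lower after the combination (a bound of -0.99, or -2.40 without scaling), and at 0.23 after doxorubicin. Averaging it with its second probe, which was not detected in untreated cells, reduced the aclarubicin bound to -0.15. EP300 had levels of 6.52, 4.68, 6.32 and 4.53 and signals of 167, 53.3, 162 and 48.8. Its bounds were small, 1.26-fold and 1.07-fold lower, because the lowest detected level on the arrays with aclarubicin was itself high (6.19 and 6.43); without scaling the bounds were -1.40 and -1.44.

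KAT2A and KAT2B, alternative catalytic subunits of the SAGA and ATAC complexes, were not lost. KAT2A had levels of 8.42, 9.42, 9.75 and 9.52 and was 2.52-fold higher after doxorubicin (1.33), past 2-fold in all 11 settings. Its differences of 1.00 after aclarubicin and 1.10 after the combination were 0.15 and -0.09 without scaling, and its non-normalized signal (542, 599, 1138 and 513) stood out only after doxorubicin. KAT2B had levels of 6.27, 7.37, 5.81 and 7.39 and differences of 1.11, -0.46 and 1.12, of which the first and the last were 0.06 and -0.24 without scaling. Among 21 other acetyltransferases and bromodomain readers, 1 was higher and 3 lower of 14 tested after aclarubicin (7.14% and 21.4%, against 16.9% and 17.3% of all genes), 2 and 0 of 15 after doxorubicin (13.3% and 0, against 11.6% and 10.1%), and 1 and 4 of 15 after the combination (6.67% and 26.7%, against 19.5% and 17.4%). TADA3 of SAGA was the highest after aclarubicin (1.31, or 0.24 without scaling) and the combination (0.96, or -0.46) and BRPF1 after doxorubicin (1.11, or 0.80), while the lowest were TRRAP (-2.29), KAT6A (-2.61) and TAF1 (-0.83) after aclarubicin, the combination and doxorubicin.

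The other methyltransferases moved apart from each other. EHMT2 (G9a), which methylates H3 in euchromatin, had levels of 5.89, 7.10, 5.33 and 7.13: it was 2.32-fold higher after aclarubicin (1.22) and 2.37-fold higher after the combination (1.24), but without scaling 0.24 and -0.03, and at -0.56 after doxorubicin. DNMT1, which copies DNA methylation at replication, had levels of 12.24, 11.43, 11.65 and 11.11 and differences of -0.81, -0.59 and -1.13 (2.19-fold lower after the combination); median scaling over detected probes turned the aclarubicin value to 0.18 and left the combination value at only -0.11. SUV39H1, which methylates H3 in heterochromatin, had levels of 9.13, 8.59, 8.46 and 9.05 and differences of -0.54, -0.67 and -0.08, of which the first and the last were -1.45 and -1.27 without scaling. All 5 of these genes were below untreated cells after doxorubicin, between -0.72 (SETDB1) and -0.46 (KMT2A), each under 2-fold.

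SETDB1, the KAP1-bound silencer of retroelements, and KMT2A, the trithorax-type activator, were lost from detection on both arrays with aclarubicin. SETDB1 had levels of 6.32, 4.44, 5.61 and 4.37, and KMT2A 5.84, 4.62, 5.38 and 4.45; after aclarubicin the SETDB1 bound was -0.14 and the others were 0.00, while without scaling SETDB1 had bounds of -1.17 and -1.21 on the arrays with aclarubicin. Their non-normalized signals were 147, 45.7, 103 and 42.3, and 108, 51.8, 88.7 and 46.0. Of 34 other DNA and histone methyltransferases, 0 were higher and 2 lower among 21 tested after aclarubicin (0 and 9.52%, against 16.9% and 17.3% of all genes), 1 and 4 among 24 after doxorubicin (4.17% and 16.7%, against 11.6% and 10.1%), and 1 and 1 among 21 after the combination (4.76% each, against 19.5% and 17.4%). UHRF1, which recruits DNMT1 to new DNA, was lowest after aclarubicin (-1.72) and the combination (-2.11), and CARM1, an arginine methyltransferase, after doxorubicin (-1.99). The highest were SMYD3 after aclarubicin (0.98, or -0.05 without scaling), ASH2L after doxorubicin (1.52) and PRMT1 after the combination (1.00, or 0.41 without scaling).

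The remodellers were below untreated cells in all 12 values (4 genes in 3 comparisons). SMARCA4, an ATPase of the SWI/SNF complex, had levels of 10.86, 10.41, 9.80 and 10.28 and was 2.08-fold lower after doxorubicin (-1.06, or -0.91 without scaling), with -0.45 after aclarubicin, which turned to 0.11 under median scaling over detected probes, and -0.58 after the combination (-1.23 without scaling). SMARCA5, the ISWI ATPase, had levels of 8.65, 8.41, 7.66 and 8.32 and was at -0.24, -0.98 and -0.33. CHD4, the NuRD ATPase, had levels of 10.15, 9.61, 9.54 and 9.37 and was at -0.54, -0.61 and -0.78, and SMARCB1, a SWI/SNF core subunit, had levels of 8.42, 8.37, 7.82 and 7.82 and was at -0.05, -0.60 and -0.60. Without scaling the aclarubicin and combination values were past 2-fold for all 3 of these, at -1.21 and -1.66 for SMARCA5, -1.11 and -1.74 for CHD4, and -1.06 and -2.00 for SMARCB1. SMARCA4, SMARCA5 and SMARCB1 were thus lower after doxorubicin than after aclarubicin, which for SMARCA5 and SMARCB1 turned to 0.37 and 0.57 above without scaling. Of 29 other remodelling complex subunits tested, 3 were higher and 10 lower after aclarubicin, 2 and 3 after doxorubicin, and 4 and 11 after the combination. The shares were 10.3% and 34.5% against 16.9% and 17.3% of all genes, 6.90% and 10.3% against 11.6% and 10.1%, and 13.8% and 37.9% against 19.5% and 17.4%. SMARCD3 was highest after aclarubicin (1.72) and the combination (1.83), though at 0.69 and 0.50 without scaling, and HELLS, a remodeller linked to DNA methylation, after doxorubicin (1.57); BAZ1A of ISWI (-2.76), SMARCA2, the alternative SWI/SNF ATPase (-2.41), and CHD7 (-1.76) were lowest after aclarubicin, the combination and doxorubicin.

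CBX3 and CBX5 are HP1 proteins, which bind methylated H3 in heterochromatin, and they differed after doxorubicin. CBX3 had levels of 10.60, 10.52, 9.12 and 10.13 and was 2.79-fold lower after doxorubicin (-1.48, and -1.04 by its second probe), past 2-fold in all 11 settings. After aclarubicin and the combination its 2 probes disagreed in sign (-0.08 and 0.54, then -0.47 and 0.59; without scaling the first of them was at -0.44 and -1.18), so no direction can be given. CBX5 had levels of 8.85, 8.25, 8.96 and 8.08 and differences of -0.60, 0.11 and -0.77, of which the first and the last were -1.59 and -2.12 without scaling.

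HMGB1 and HMGB2 are abundant DNA-bending proteins, and their differences were opposite in sign under the reported processing. This did not hold under every scaling: without it both were below untreated cells after the combination (-0.21 for HMGB1 and -1.38 for HMGB2). HMGB1 had levels of 8.40, 9.41, 7.61 and 9.40, which gave differences of 1.01, -0.79 and 1.01; without scaling these were 0.15, -0.67 and -0.21. HMGB2 had levels of 12.07, 11.15, 12.26 and 10.97, which gave -0.92, 0.19 (-0.01 without scaling) and -1.11, with only -0.02 and -0.16 after aclarubicin and the combination under median scaling over detected probes. The second HMGB2 probe gave -0.52, -0.035 and -0.81, so the sign of HMGB2 after doxorubicin depended on the probe. The lower HMGB1 after doxorubicin kept its direction under every scaling. Among 12 other HP1 and HMG proteins tested, 2 were higher and 1 lower after aclarubicin (16.7% and 8.33%, against 16.9% and 17.3% of all genes), 0 and 1 after doxorubicin (0 and 8.33%, against 11.6% and 10.1%), and 3 and 1 after the combination (against 19.5% and 17.4%). MBD4, a reader of methylated DNA, was the highest in each (1.52, 0.68 and 1.60), although the first and the last fell under 2-fold without scaling (0.95 and 0.76), HMGN4 the lowest after aclarubicin and the combination (-1.41 and -1.29), and CBX1, the remaining HP1 gene, after doxorubicin (-1.59).

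The share of members called was near that of all genes. After aclarubicin 5 of 38 tested members were at least 2-fold higher (13.2%) and 5 lower (13.2%), against 16.9% and 17.3% of the 8987 genes tested. After doxorubicin 3 of 38 were higher (7.89%) and 5 lower (13.2%), against 11.6% and 10.1% of 9986 genes. After the combination 7 were higher (18.4%) and 7 lower (18.4%), against 19.5% and 17.4% of 9002 genes. The shares of members therefore lay near the background in all 3 comparisons.

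The members' median lay below that of all genes in each comparison with untreated cells: -0.54 against -0.09 after aclarubicin, -0.47 against 0.00 after doxorubicin and -0.59 against -0.13 after the combination. Without scaling the gap was nearly gone after aclarubicin (-0.90 against -0.85) and smaller after the combination (-1.35 against -1.13), and median scaling over detected probes gave -0.03 against 0.02 and -0.14 against 0.09; after doxorubicin the medians were -0.42 against 0.07 and -0.44 against 0.05 under these 2 settings. With genes of only a bound set at that bound, the aclarubicin and combination medians of the members were -0.39 and -0.42. After doxorubicin 28 of 38 members were below untreated cells and 10 above, and 35 of the 38 kept their direction under all 10 alternatives (the others were HMGB2, KDM1A and SUZ12, all within 0.19 of 0). Of all 8511 genes measured on both of these arrays, 4619 were below untreated cells and 3887 above. After aclarubicin 20 of 30 members measured on both arrays kept their direction, and after the combination 20 of 32. No count of kept directions is given over all genes, so those of the members have no background. The higher calls after aclarubicin and the combination rest on the scaling: without it 0 members were higher and 15 lower after aclarubicin, 0 higher and 23 lower after the combination, and 2 higher and 4 lower after doxorubicin, each of 38. The all-gene counts without scaling were 230 higher and 3433 lower of 8987 after aclarubicin. They were 233 and 4071 of 9002 after the combination, and 1326 and 865 of 9986 after doxorubicin. Over all genes the higher calls made up 49.4% of all calls after aclarubicin and 6.28% without scaling, 52.9% and 5.41% after the combination, and 53.5% and 60.5% after doxorubicin.

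**Figure D3:**
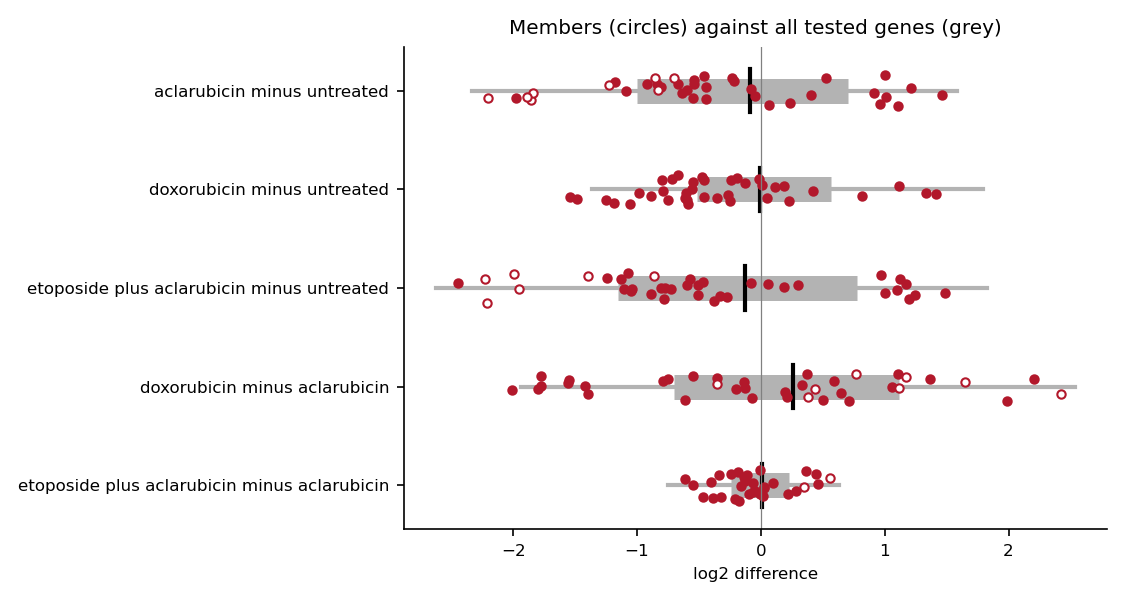
Differences of the detected members (circles) against those of all tested genes (grey box from the 25th to the 75th percentile, black bar at the median, grey line from the 5th to the 95th) on the log2 scale for the 5 comparisons; open circles are fitted values of members detected on only 1 of the 2 arrays. Most members lie within the spread of all genes, with the members' median left of the black bar in the comparisons with untreated cells (-0.54 against -0.09 for aclarubicin), and the combination minus aclarubicin is narrow.

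Loss of detection after aclarubicin touched 8 of 38 members (21.1%), against 25.7% of all genes detected in untreated cells. The untreated and the doxorubicin array each detected all 38 members, the aclarubicin array 30 and the combination array 32. The members detected in untreated and doxorubicin-treated cells only were ASF1A, ATRX, CREBBP, EP300, KMT2A and SETDB1, which is 15.8% of the set against 19.0% of all 10077 genes. On all 4 arrays 78.9% of the members and 59.0% of all genes were detected. The 8 members lost after aclarubicin spanned a median of 63.0 kb in the genome and the 30 kept 41.0 kb; over all genes with a known span the 2272 lost had a median of 46.7 kb and the 6566 kept 26.1 kb. Across members, Spearman's rho between span and difference was -0.16 for aclarubicin (30 genes), 0.10 for doxorubicin (38) and -0.20 for the combination (32), beside -0.12, -0.09 and -0.19 over all genes; these describe genes read on the same arrays, which are not independent.

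Doxorubicin and aclarubicin, given at 9 and 10 µM, were set against each other directly, without the untreated array; the doses are not the same, so drug and dose cannot be told apart. Of 38 members 6 were at least 2-fold higher after doxorubicin (15.8%) and 8 lower (21.1%), against 18.3% and 18.7% of 9797 genes. The 6 were the PRC2 genes EED (2.20, 4.61-fold), SUZ12 (1.99, 3.97-fold) and EZH2 (1.37, 2.58-fold), with HMGB2 (1.11, but 0.49 by its second probe), NAP1L4 (1.06) and CREBBP (at least 2.74-fold). The 8 lower after doxorubicin were HDAC3 (-2.01, 4.02-fold), HMGB1 (-1.80), NAP1L1 (-1.77), EHMT2 (-1.77), KAT2B (-1.56), SSRP1 (-1.55), ANP32A (-1.42) and CBX3 (-1.40). The probe disagreement in this comparison had an SD of 0.57. It cannot speak for the 14 calls, since the 2-fold threshold (1 on the log2 scale) already lies above it.

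Each of the 3 PRC2 members stayed at least 2-fold higher after doxorubicin than after aclarubicin in all 11 settings. The ranges were 1.87 to 3.19 for EED, 1.12 to 2.50 for EZH2 and 1.21 to 2.12 for SUZ12, and the 3 EZH2 probes gave 1.37 to 1.86. HDAC3 (-2.07 to -1.16) and NAP1L1 (-2.22 to -1.31) stayed at least 2-fold lower in all 11. The other 9 crossed 2-fold in at least 1 setting: without scaling ANP32A was at -0.19, SSRP1 at -0.42, KAT2B at -0.40, EHMT2 at -0.77, HMGB1 at -0.82, CBX3 at -0.81 and HMGB2 at 0.89, and NAP1L4 was at 0.24 and HMGB2 at 0.00 under median scaling over detected probes. For CREBBP the bound fell to 0.31 when its probes were averaged. Without scaling 11 of 38 members were higher and 2 lower after doxorubicin, under median scaling over detected probes 4 and 12, and without scaling the higher calls over all genes went from 49.4% to 86.6% of the calls. Of all 9797 genes tested, 4010 were higher and 623 lower without scaling. Under median scaling over detected probes 2044 were higher and 2194 lower.

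**Figure D4:**
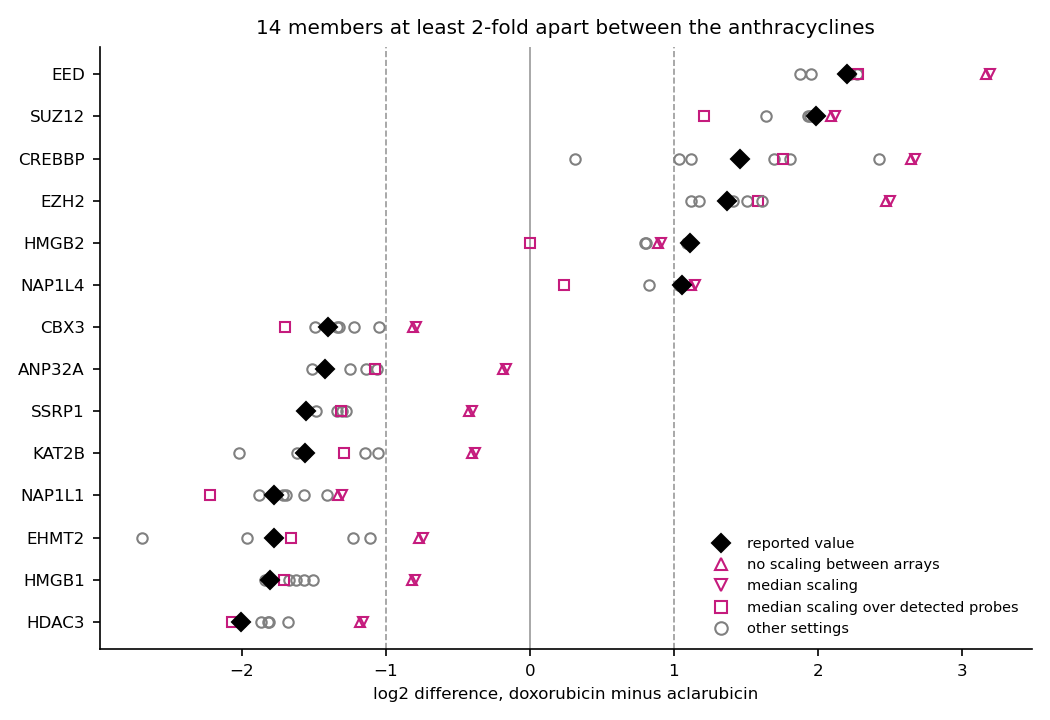
Doxorubicin minus aclarubicin (horizontal axis, log2 scale) for the 14 members at least 2-fold apart, under the reported processing (black diamonds) and the alternatives (open symbols); dashed lines mark 2-fold, and the CREBBP values are bounds. EED (2.20), SUZ12 (1.99), EZH2 (1.37), NAP1L1 (-1.77) and HDAC3 (-2.01) stay outside the dashed lines under every alternative, while ANP32A reaches -0.19 without scaling.

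The arrays with and without etoposide beside aclarubicin were close to each other in the set. Of 32 members tested, 0 were higher and 0 lower by 2-fold than with aclarubicin alone, against 0.451% and 0.961% of 6870 genes. The differences of the 30 measured members ran from -0.61 (SET) to 0.46 (SUV39H1), with a median of -0.08 beside 0.01 for all genes and a probe disagreement of 0.17. SET, SMARCB1 (-0.55), SUZ12 (-0.47), NAP1L4 (-0.40) and CBX3 (-0.38) were the lowest, and SUV39H1, ANP32A (0.44) and EED (0.36) the highest; the second CBX3 probe gave 0.05. Without scaling SET was past 2-fold (-1.04), the only member to be so, and the higher calls over all genes were 2.05% of the calls instead of 32.0%.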

How the data were processed

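Total RNA of MelJuSo cells was read on 4 one-colour Illumina arrays, 1 for each group, grouped by the treatment in the labels. Per the file headers, the table used holds an intensity, not normalized, and a detection p-value for each probe and array. A further table of the authors' normalized values appears to be on a log2 scale; the submitters' processing notes name lumi, with its settings not given in the sources used here. Intensities ran from 30.1 to 36891. They were corrected by limma's normexp (version 3.58.1, R 4.3.3, offset 16, background level estimated through the detection p-values), quantile-normalized and taken to log2. Quantile normalization removes a shift shared by most genes of an array.

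Of 48803 probes 27578 had 1 gene symbol, 13 had several and 21212 were unnamed here; 5 probes whose symbol is an older alias of a member but belongs to another gene today were left out. A gene was represented by its detected probe of highest mean level (detection p under 0.01). A gene detected on 1 of 2 arrays has a bound: its detected level was set against its own value on the dim array or that array's lowest detected level, whichever was higher, and a list's median uses fitted values unless bounds are named. All 40 members are named, and of each of 8 lists of other chromatin genes the highest and lowest gene of each of the 3 comparisons with untreated cells among those both arrays detected. For the other Polycomb genes those of doxorubicin minus aclarubicin are named too. The members and lists were chosen with earlier results of these data known. There is no test, since each group has 1 array; the number of arrays limits the precision.

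There were 12 alternatives: no background correction, median scaling, cyclic loess, no scaling, the authors' normalized log2 values, an offset of 50, the mean over probes, no detection filter or one on all 4 arrays, a threshold of 1.5-fold or of 3-fold, and, chosen after seeing the data, median scaling over the probes detected on all arrays. Gene spans and promoters are from RefSeq tables (GRCh38.p14); the files name no build, so the only coordinates given are those of the 3 printed promoters in that RefSeq build. Python 3.11.15 with pandas 2.3.3, numpy 2.4.6 and scipy 1.17.1 was used.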

Additional observations from a re-analysis of the deposited data

How the results depend on the processing

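No paired analysis was possible because each group has 1 array. Replicates could not be left out for the same reason, and signal over background limits the dim genes.

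Counts of members past 2-fold upward and downward are given in that order, and only where they moved by more than 1.5 times. For aclarubicin minus untreated (5 and 5 as reported), the higher count was 1 without background correction and 1 with an offset of 50, 0 under median scaling and 0 without scaling, 3 under cyclic loess, 3 with the authors' normalized values and 0 at 3-fold. The lower count was 2, 2, 15 and 15 under the first 4 of these, 3 with detection on all 4 arrays, 8 without a detection filter, 12 at 1.5-fold and 1 at 3-fold. For doxorubicin minus untreated (3 and 5), the higher count was 0 at 3-fold, and the lower count 3 under cyclic loess, 16 at 1.5-fold and 0 at 3-fold. For the combination minus untreated (7 and 7), the higher count was 3 without background correction, 4 under cyclic loess, 4 with an offset of 50, and 0 under median scaling, without scaling and at 3-fold; the lower count was 23 under median scaling and without scaling, 12 under cyclic loess and without a detection filter, 4 with the authors' values and with median scaling over detected probes, 15 at 1.5-fold and 1 at 3-fold. For doxorubicin minus aclarubicin (6 and 8), the counts were 11 and 2 under median scaling and without scaling, and 2 and 4 at 3-fold. For the combination minus aclarubicin (0 and 0), 1 member was lower under median scaling, without scaling and at 1.5-fold. Under median scaling the counts over all genes were 211 and 3504 of 8987 after aclarubicin and 239 and 4035 of 9002 after the combination. For doxorubicin minus aclarubicin they were 4075 and 596 of 9797.

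The members' median for aclarubicin minus untreated moved from -0.54 to -0.92 under median scaling, -0.90 without scaling, -0.029 with median scaling over detected probes and -0.34 with detection on all 4 arrays. For the combination it moved from -0.59 to -1.34, -1.35 and -0.14 under the first 3 of these. For doxorubicin minus aclarubicin it was 0.21 as reported, 0.65, 0.62 and -0.26 under the same 3, 0.33 under cyclic loess and -0.13 with detection on all 4 arrays. For the combination minus aclarubicin it moved from -0.08 to -0.32 under median scaling and -0.36 without scaling. The doxorubicin minus untreated median (-0.47) lay between -0.51 (the authors' normalized values) and -0.32 (no background correction) in all its alternatives.

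Called genes that changed sign were ANP32B under median scaling over detected probes (0.093 after aclarubicin, 0.20 after the combination) and, after the combination, EHMT2 (-0.022 and -0.033), HMGB1 (-0.20 and -0.21), KAT2A (-0.074 and -0.086), KAT2B (-0.23 and -0.24) and SSRP1 (-0.14 and -0.15) under median scaling and without scaling. The cause of each change was not tested. The median of all probes lies near background, so median scaling left the arrays nearly as without scaling.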

Other observations

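Some paralogs in the set lay on opposite sides when doxorubicin was set against aclarubicin; these pairs were chosen after their values were seen. HMGB1 was at -1.80 and HMGB2 at 1.11, NAP1L1 at -1.77 and NAP1L4 at 1.06, CBX3 at -1.40 and CBX5 at 0.71, and KAT2B at -1.56 and KAT2A at 0.33, each with the same directions without scaling between arrays. Under median scaling over detected probes HMGB2 fell to 0.00, KAT2A to 0.08 and NAP1L4 to 0.24, while CBX5 was at 0.78. The 0.33 of KAT2A was also smaller than the probe disagreement of 0.57. HDAC3 was at -2.01 and HDAC2 at 0.59, the latter turning to -0.32 under median scaling over detected probes, and ANP32A was at -1.42 and ANP32B at 0.37, the latter turning to -0.11 without scaling. HDAC1, the third class I deacetylase in the set, was at -0.20. Other paralogs lay on the same side, higher after doxorubicin: ASF1A (a bound of 0.43) with ASF1B (0.50), and CREBBP (a bound of 1.46) with EP300 (a bound of 0.14).

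Of 7 members known in other studies as genes of proliferating cells (ASF1B, DNMT1, EZH2, HMGB2, NASP, SUV39H1 and SUZ12), 0 were at least 2-fold higher and 1 lower after aclarubicin, 1 and 1 after doxorubicin, and 1 and 3 after the combination. These are shares of 0 and 14.3% after aclarubicin, against 16.9% and 17.3% of all genes, 14.3% and 14.3% against 11.6% and 10.1% after doxorubicin, and 14.3% and 42.9% against 19.5% and 17.4% after the combination. The 3 lower after the combination were SUZ12, DNMT1 and HMGB2. Under median scaling over detected probes DNMT1 was at only -0.11 and HMGB2 at -0.16, while EZH2 passed 2-fold (-1.13). Without scaling DNMT1 and HMGB2 were at -1.33 and -1.38. Between the anthracyclines 3 of the 7 were at least 2-fold higher after doxorubicin (EZH2, HMGB2 and SUZ12) and 0 lower, beside 18.3% and 18.7% of all genes tested. HMGB2 was past 2-fold in 6 of 11 settings there and at 0.00 under median scaling over detected probes. Its second probe gave 0.49 there, and -0.81 for the combination minus untreated.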
